A study of Saccharomyces cerevisiae with 8 samples.

Results

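The HP and nHP cultures of the mutation strain of Saccharomyces cerevisiae were compared across all genes, with 2 RNA-seq libraries a group and so 4 of the 8 libraries of the series. The 2 nHP libraries and the 2 HP libraries were chosen by the titles of their columns in the deposited count table. Both groups are labelled as strain BY4741, a laboratory haploid of mating type a, as carrying a mutation, and as improved in oxidation stress tolerance. Both were harvested in mid-exponential phase from SC-Ura, a synthetic medium lacking uracil, on which cells need a working URA3 gene. The sources used here do not name the mutated gene, the peroxide dose or the time of exposure. The control strain, with 2 nHP and 2 HP libraries of its own, is used to ask whether the difference depended on the strain. Its libraries also entered the same fit, so the p-values below rest on the spread of all 8 libraries. The nHP control and HP control groups are labelled with the same parent strain, SC-Ura medium and growth phase, apart from the H2O2 entry described next.

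HP and nHP appear only in the titles, and the labels do not say which of them held hydrogen peroxide. The series' design names cultures with and without H2O2 for both strains. The media entry, in contrast, lists all 4 mutation strain libraries as without H2O2 and all 4 control strain libraries as with it. The groups below follow the titles, so every direction is a difference between cultures titled HP and cultures titled nHP. Whether replicates were separate cultures is not labelled. The spread behind each p-value is therefore that of the 8 libraries of the series only, and may be technical.

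Library totals were 8296523 and 8850123 counts for nHP and 10539208 and 9156256 counts for HP. Of 7126 genes in the table, 6174 passed the filter on low counts. Levels are CPM, each library's counts scaled to the same total after TMM normalization, in the order replicate 1, replicate 2. A log2 fold change is HP minus nHP with its standard error after the ± sign, and n = 2 libraries a group throughout. A gene is called when the adjusted p of edgeR's quasi-likelihood test, Benjamini-Hochberg over all 6174 genes, is below 0.05, and "rose" and "fell" are used of called genes alone.

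Markers of cell identity were checked in the same libraries. Most genes that mark a-type or haploid cells were far lower in the mutation strain than in the control strain. MFA1, encoding the a-factor pheromone, stood at 4.61 and 4.33 CPM in nHP and 4.76 and 6.88 CPM in HP, against 335 to 608 CPM over the control strain's 4 libraries. STE2, the receptor for alpha-factor, stood at 10.7 and 12.6 CPM in nHP and 15.9 and 16.0 CPM in HP, against 554 to 809 CPM. GPA1, the pheromone G protein's alpha subunit, stood at 13.7 to 18.8 CPM, against 178 to 214 CPM. The alpha-cell marker MF(ALPHA)1 was low in both strains, at 2.49 to 8.49 CPM in the mutation strain and 3.596 to 4.87 CPM in the control strain. SAG1, another alpha-specific gene, stood higher, at 30.06 to 41.59 CPM and 40.04 to 47.18 CPM in turn. In the mutation strain SAG1 was above STE2 and GPA1. The alpha-specific genes MF(ALPHA)2 and STE3 were below SAG1 in every library. The defining markers of a BY4741-type haploid were thus present in the control strain and at a small share of that level in all 4 mutation strain libraries. LEU2 and MET17, which BY4741 lacks, had 0 counts in all 8 libraries, where 3 counts would be 0.266 to 0.374 CPM. The other BY4741 marker loci checked, HIS3 and URA3, had counts in every library. Whether the HIS3 counts came from an intact gene was not tested. HIS3 stood at 49.97 to 84.9 CPM and URA3 at 1801 to 4205 CPM over the 8 libraries. TAF10, a subunit shared by the TFIID and SAGA transcription complexes, stood at 11637 and 13226 CPM in nHP and 16691 and 16682 CPM in HP, against 87.0 to 112 CPM in the control strain.

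Baker's yeast on glucose ferments, and it holds down the genes for using acetate, ethanol, fatty acids and other poor carbon sources until glucose is short. Ribosome assembly, which takes much of a fast-growing cell's transcription, and the general stress programme tend to move in opposite directions across many conditions. Hydrogen peroxide is removed by catalases, peroxidases, thioredoxins and glutathione, many of them under the factors Yap1 and Skn7.

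In the mutation strain 3043 genes, 49.3% of those tested, differed between HP and nHP. Of these, 1557 rose (25.2%) and 1486 fell (24.1%), and the median log2 fold change over all tested genes was 0.02. At a change of at least 2-fold, 266 genes rose (4.31%) and 101 fell (1.64%). In all 3043 called genes the HP and nHP libraries did not overlap. Where a lack of overlap is given for called genes below, it therefore adds nothing to their calls. Over all tested genes, both HP libraries were above both nHP libraries in 2540 (41.1%) and below them in 2389 (38.7%). In the control strain 121 genes (1.96%) were called, 89 higher (1.44%) and 32 lower (0.518%). A direct test of whether the HP difference itself differed between strains called 1803 genes (29.2%), of which 904 were higher (14.6%) and 899 lower (14.6%) in the mutation strain. That test is called the strain test below, and its values are differences of 2 log2 fold changes. Counts in the lists below are to be read beside the shares of all genes. These were 25.2% for rises, 24.1% for falls and 14.6% for each direction of the strain test. The split of calls depended on scaling. With no composition normalization 2106 genes rose and 1051 fell, and the median over all genes moved to 0.14. On log2 values of the deposited RPKM plus 1, 2061 rose and 988 fell. A fit of the 4 mutation strain libraries alone called 3426 genes. The number of calls dropped to 1773 without nHP mutation replicate 2 and to 2002 without HP mutation replicate 1. The number in the strain test dropped to 725 and 949 without the same libraries, and to 921 without nHP control replicate 1 and 1143 without HP mutation replicate 2.

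**Figure D1:**
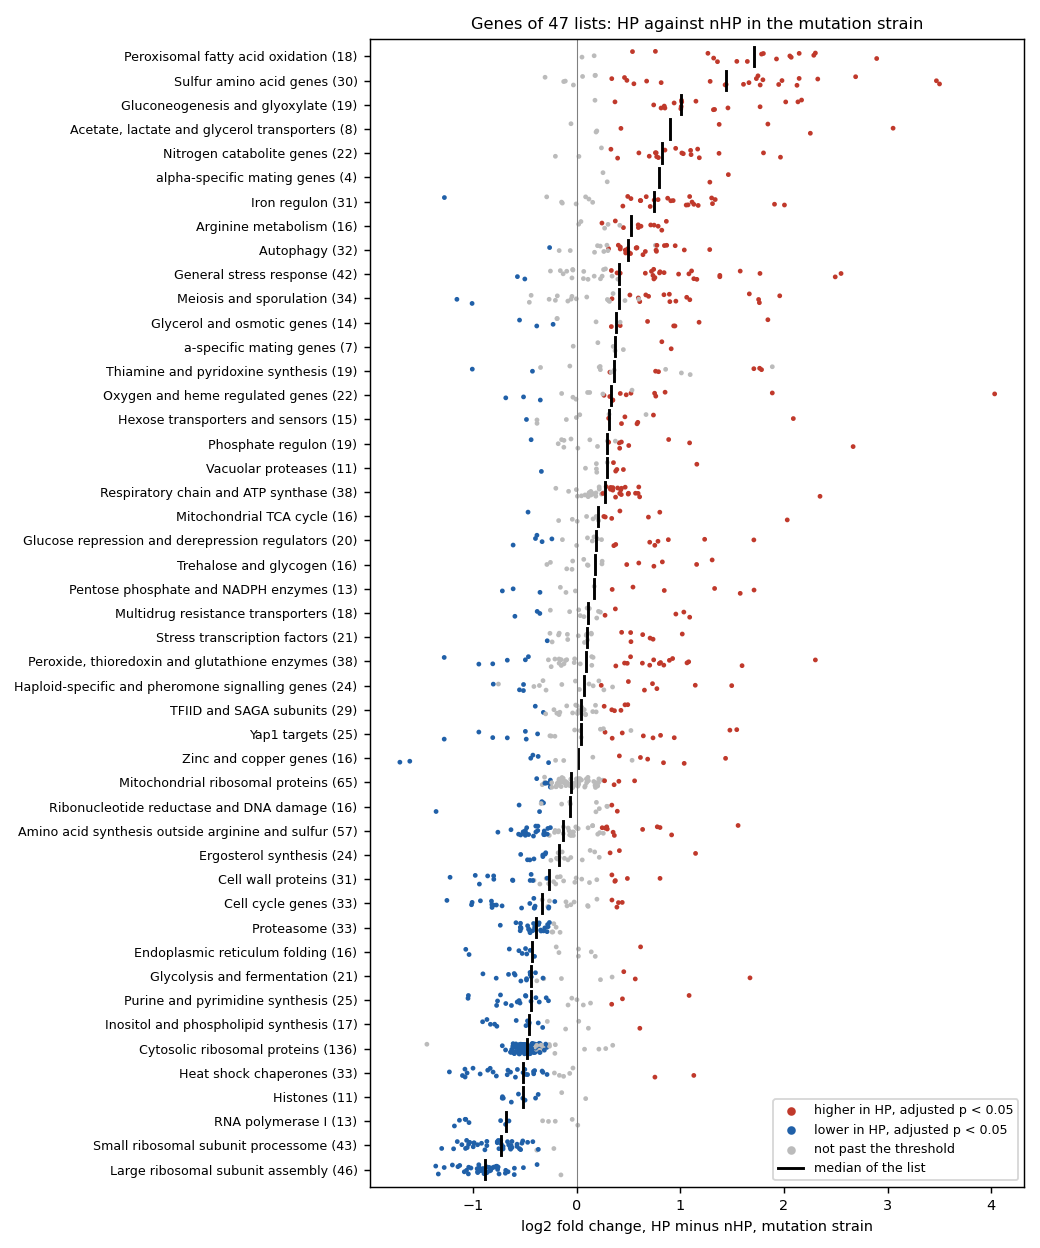
Log2 fold change, HP minus nHP, of each tested gene of 47 lists in the mutation strain. Each point is a gene, red if called higher, blue if called lower and grey if not past the threshold; the number tested stands in brackets and the black bar is the list's median, from 1.71 for peroxisomal fatty acid oxidation down to -0.89 for large ribosomal subunit assembly.

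The highest list median belonged to fatty acid breakdown, a use of carbon other than glucose. Of 18 genes for peroxisomal fatty acid oxidation, 16 rose and 2 were not past the threshold, with a median log2 fold change of 1.71. All 16 that rose were also higher by the strain test, and the list's median in the control strain was -0.10. POX1, the acyl-CoA oxidase of the first step, stood at 41.6 and 22.8 CPM in nHP and at 264 and 215 CPM in HP (2.90 ± 0.33, adjusted p = 6.7e-05). FOX2, the multifunctional enzyme of the next steps, stood at 129 and 71.9 CPM in nHP and at 537 and 443 CPM in HP (2.29 ± 0.28, adjusted p = 0.000117). CTA1, the peroxisomal catalase, stood at 82.3 and 50.7 CPM in nHP and at 362 and 294 CPM in HP (2.30 ± 0.27, adjusted p = 8.06e-05). In each of these genes both HP libraries lay far above both nHP libraries, and nHP replicate 1 lay above nHP replicate 2. IDP3, the peroxisomal isocitrate dehydrogenase that supplies NADPH, rose from 53.2 and 40.4 CPM to 167 and 155 CPM (1.78 ± 0.13, adjusted p = 9.21e-06).

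A short reading of the oleate response element, CGGNNNTNA on either strand, was present in 17 of the 18 promoters of this list (94.4%), against 23.0% of 6001 yeast promoters. A promoter here is the stretch from 250 bases before to 50 bases after the start codon in RefSeq's assembly R64. FOX2 is shown because it holds 2 matches, marked in capitals, at chrXI:457235-457294 on the minus strand.
FOX2: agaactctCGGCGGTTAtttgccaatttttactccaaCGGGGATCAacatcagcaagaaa
A match describes the letters of the window, and binding was not measured.

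Gluconeogenesis and the glyoxylate cycle, which build sugar from acetate and ethanol, rose in 18 of 19 genes and 1 did not pass (median 1.01). Of these, 16 were higher by the strain test, and the median in the control strain was 0.00. ACS1, the acetyl-CoA synthetase used on acetate, stood at 160 and 116 CPM in nHP and 672 and 567 CPM in HP (2.17 ± 0.29, adjusted p = 0.000171). PCK1, which commits carbon to gluconeogenesis, stood at 30.4 and 22.5 CPM in nHP and 114 and 118 CPM in HP (2.13 ± 0.21, adjusted p = 2.82e-05). ADH2, the alcohol dehydrogenase that oxidises ethanol, stood at 21.9 and 21.03 CPM in nHP and 97.9 and 75.7 CPM in HP (2.02 ± 0.14, adjusted p = 4.73e-06). The HP libraries were clear of the nHP libraries in all 3 genes. Of 8 transporters for acetate, lactate and glycerol, 5 rose and 3 did not pass (median 0.90), and the same number were higher by the strain test. The acetate transporter ADY2 went from 57.9 and 31.9 CPM to 401 and 345 CPM (3.05 ± 0.35, adjusted p = 6.98e-05). JEN1, the lactate and pyruvate transporter, went from 136 and 93.5 CPM to 558 and 536 CPM (2.25 ± 0.28, adjusted p = 0.000114). STL1, the glycerol importer, went from 298 and 166 CPM to 852 and 816 CPM (1.84 ± 0.35, adjusted p = 0.00133). All 3 were lower in nHP replicate 2 than in nHP replicate 1, and in neither did they reach the HP libraries.

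Of 20 regulators of glucose repression tested, 8 rose, 5 fell and 7 did not pass (median 0.18). The share that rose was above the 25.2% of all genes, and the share that fell was close to the 24.1% of all genes. CAT8, the activator of gluconeogenic genes, rose from 103 and 84.1 CPM to 208 and 232 CPM (1.23 ± 0.17, adjusted p = 0.00022). NRG2, a repressor of glucose-repressed genes, rose from 30.0 and 29.2 CPM to 122 CPM in both HP libraries (2.04 ± 0.12, adjusted p = 2e-06). REG2, a regulatory subunit of the Glc7 phosphatase, rose 3.27-fold (1.71 ± 0.22, adjusted p = 0.000158). SNF4, a subunit of the Snf1 kinase that relieves repression, fell from 118 and 145 CPM to 85.3 and 86.6 CPM (-0.62 ± 0.10, adjusted p = 0.000616). The repressor MIG2 stood at 57.7 and 57.1 CPM in nHP and at 82.4 and 130 CPM in HP (0.88 ± 0.22, adjusted p = 0.00608), and its call was lost without nHP mutation replicate 2 or HP mutation replicate 2 (adjusted p = 0.0561 and 0.0728). The list had 4 rises without nHP mutation replicate 2, 1 fall with no composition normalization, 2 falls without nHP mutation replicate 2, either HP mutation library, and 3 without nHP control replicate 2. HAP4, the activator of respiratory genes, stood at 154 and 192 CPM in nHP and at 166 and 206 CPM in HP, where the groups overlapped (0.10 ± 0.16, adjusted p = 0.624).

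Respiratory chain and ATP synthase genes rose in 20 of 38 and 18 missed the threshold (median 0.27). Their changes were mostly small, and 13 rose without nHP mutation replicate 2. NDE2, a mitochondrial external NADH dehydrogenase, was the exception in size, from 46.6 and 32.3 CPM to 217 and 184 CPM (2.35 ± 0.25, adjusted p = 4.81e-05). NDI1, the internal NADH dehydrogenase, rose from 204 and 197 CPM to 307 and 299 CPM (0.60 ± 0.10, adjusted p = 0.000672). QCR10, a subunit of the cytochrome bc1 complex, rose 1.52-fold. Of the 38 genes, 3 were higher and 2 lower by the strain test, which called 14.6% of all genes in each direction. In the mitochondrial TCA cycle 7 of 16 genes rose (median 0.20). CIT3, a citrate and methylcitrate synthase, rose from 19.4 and 16.9 CPM to 81.7 and 66.9 CPM (2.03 ± 0.17, adjusted p = 1.47e-05). MDH1, the mitochondrial malate dehydrogenase, rose 1.74-fold and LSC2, a subunit of succinyl-CoA ligase, rose 1.61-fold. The 7 rises became 3 without nHP mutation replicate 1 or HP mutation replicate 1, 4 without either of the other mutation strain libraries, and 11 with no composition normalization.

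Glycolysis and fermentation genes fell in 13 of 21, rose in 3 and did not pass in 5 (median -0.44). PDC1, the main pyruvate decarboxylase, stood at 7782 and 11197 CPM in nHP and at 4968 and 5141 CPM in HP (-0.91 ± 0.18, adjusted p = 0.00157). PDC5, the second isozyme, stood at 75.6 and 102 CPM in nHP and 56.2 and 46.9 CPM in HP (-0.78 ± 0.14, adjusted p = 0.000929). PDC6, the minor isozyme, moved the other way, from 11.6 and 8.29 CPM to 33.1 and 30.2 CPM (1.67 ± 0.18, adjusted p = 5.47e-05). The nHP and HP libraries did not overlap in any of these 3 isozymes, and nHP replicate 2 was the highest library for PDC1 and PDC5. TDH2, glyceraldehyde-3-phosphate dehydrogenase, fell 1.58-fold, but its coding sequence is 95.8% identical to TDH3 and the split of shared reads is not known. The 13 falls became 8 without nHP mutation replicate 2, 5 and 7 without HP mutation replicates 1 and 2 in turn. The 3 rises became 5 with no composition normalization and 1 without HP mutation replicate 1.

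Hexose transporters and glucose sensors rose in 7 of 15, fell in 1 and did not pass in 7 (median 0.31), and 4 rose without nHP mutation replicate 1 or without HP mutation replicate 2. HXT5, a transporter made in slow growth, went from 431 and 245 CPM to 1553 and 1323 CPM (2.09 ± 0.32, adjusted p = 0.000344). HXT1, the low-affinity transporter of high glucose, went from 309 and 349 CPM to 443 and 546 CPM (0.59 ± 0.11, adjusted p = 0.00154). HXT6 rose 1.67-fold and HXT7 fell 1.40-fold, and as their coding sequences are 99.8% identical their separate values are uncertain. In the pentose phosphate pathway and other NADPH sources 6 of 13 genes rose, 3 fell and 4 did not pass (median 0.17). The minor isozymes rose, with transketolase TKL2 from 262 and 137 CPM to 706 and 599 CPM (1.71 ± 0.30, adjusted p = 0.000786). The minor 6-phosphogluconate dehydrogenase GND2 rose 2.98-fold and the minor transaldolase NQM1 rose 2.51-fold. RKI1, ribose-5-phosphate isomerase, fell from 126 and 139 CPM to 75.3 and 85.7 CPM (-0.72 ± 0.12, adjusted p = 0.000547).

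**Figure D2:**
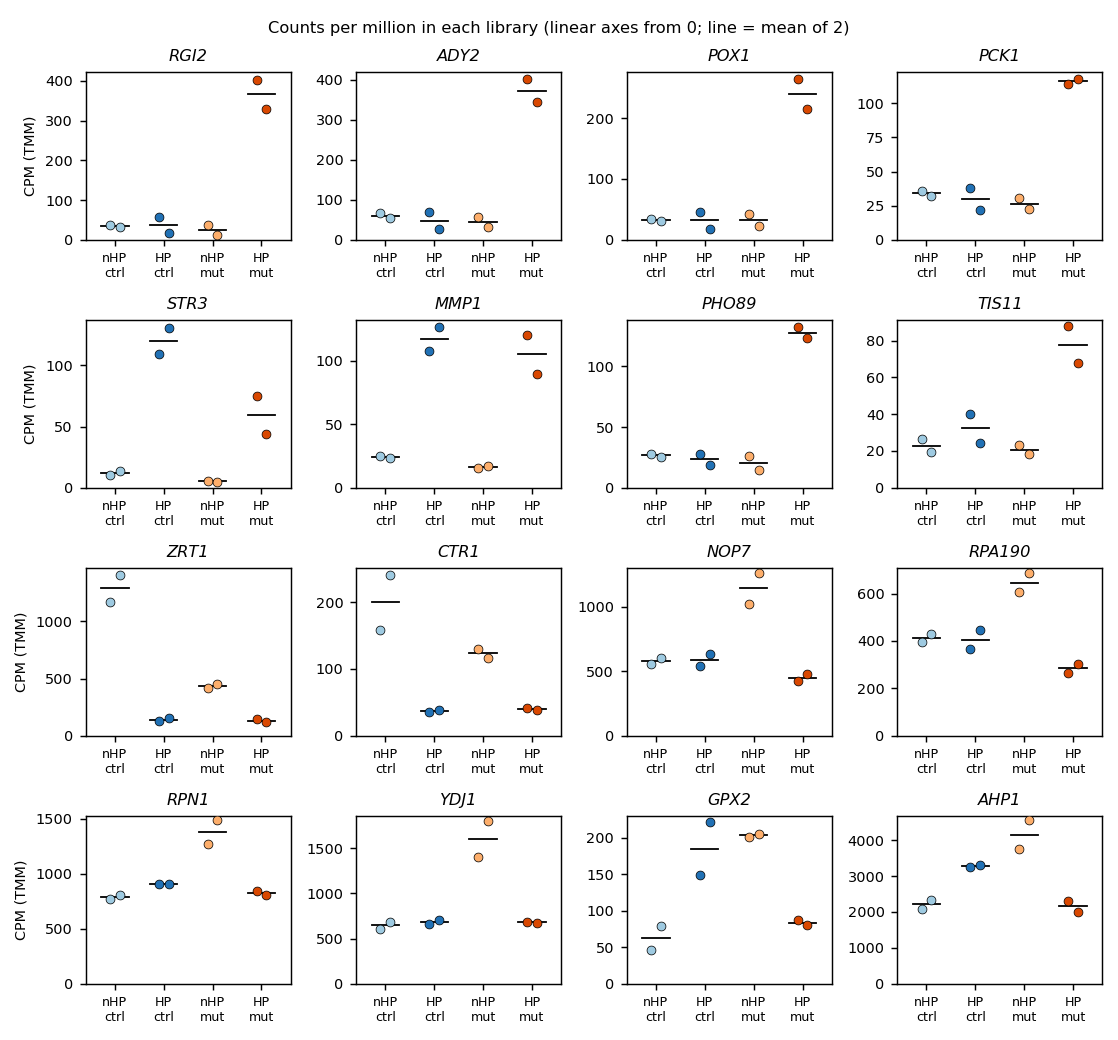
Level of 16 genes in each of the 8 libraries, as TMM-scaled CPM on linear axes from 0, with points for libraries and a line for the mean of 2. For ADY2, POX1 and PCK1 the HP mutation libraries stand apart from the other 6, whereas for STR3, MMP1, ZRT1 and CTR1 the HP and nHP libraries of both strains separate in the same direction.

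Genes for methionine, cysteine and sulfate use rose in 23 of 30 tested and 7 did not pass (median 1.44). In the control strain 24 of the 30 rose, with a median of 1.32, and by the strain test 5 were higher and 5 lower. STR3, cystathionine beta-lyase, went from 5.73 and 4.82 CPM to 75.3 and 44.2 CPM (3.50 ± 0.28, adjusted p = 1.13e-05), and its control strain log2 fold change was 3.31. MHT1, which makes methionine from S-methylmethionine, went from 4.11 and 3.22 CPM to 50.6 and 30.6 CPM (3.47 ± 0.27, adjusted p = 1.13e-05), with 2.74 in the control strain. MMP1, the S-methylmethionine permease, went from 15.3 and 17.2 CPM to 120 and 89.8 CPM (2.69 ± 0.16, adjusted p = 2e-06), with 2.26 in the control strain. In all 3 the HP libraries were higher in both strains, and the strain test did not pass (adjusted p = 0.743, 0.186 and 0.16). MXR1, a methionine sulfoxide reductase that repairs oxidised methionine, rose 3.02-fold in the mutation strain and by a log2 fold change of 2.03 in the control strain. CACGTG, the letters read by the sulfur regulator Cbf1, was present in 23.3% of this list's promoters against 2.92% of all promoters. The same letters were present in 21.1% of the promoters of the phosphate list described below.

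Nitrogen catabolite genes, which take up and break down poor nitrogen sources, rose in 19 of 22 and 3 did not pass (median 0.82). Of these, 14 were higher by the strain test, and the control strain's median was 0.10. PUT4, the proline permease, went from 90.8 and 61.1 CPM to 282 and 247 CPM (1.80 ± 0.24, adjusted p = 0.000153). DUR3, the urea and polyamine permease, went from 41.0 and 34.5 CPM to 95.0 and 100 CPM (1.37 ± 0.13, adjusted p = 2.84e-05). DAL80, a repressor of the same genes, rested on few reads, with 3 and 4 counts in nHP and 18 and 17 counts in HP (adjusted p = 0.00354). Arginine metabolism rose in 11 of 16 genes and 5 did not pass (median 0.52). CPA1, a subunit of carbamoyl phosphate synthetase, rose 1.82-fold (0.86 ± 0.12, adjusted p = 0.000183), ARG56, which makes 2 enzymes of ornithine synthesis, rose 1.76-fold, and ARG7, ornithine acetyltransferase, rose 1.72-fold. The Gcn4 letters TGACTCA were present in 31.2% of the arginine promoters, against 2.73% of all promoters.

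Autophagy genes rose in 22 of 32, fell in 1 and did not pass in 9 (median 0.50), and 16 were higher by the strain test. ATG39, the receptor that sends nuclear membrane to the vacuole, went from 60.4 and 49.1 CPM to 137 and 129 CPM (1.28 ± 0.13, adjusted p = 3.49e-05). ATG36, the receptor for peroxisomes, went from 29.8 and 25.4 CPM to 60.9 and 52.1 CPM (1.04 ± 0.14, adjusted p = 0.000217). ATG15, a vacuolar lipase, rose 1.93-fold. The one member that fell, the membrane protein ATG27, changed 1.20-fold, and its call was lost under 8 of 19 alternative settings, among them no composition normalization (adjusted p = 0.2). Of 11 vacuolar proteases and related genes, 5 rose, 1 fell and 5 did not pass (median 0.29). AMS1, the vacuolar alpha-mannosidase, rose from 162 and 123 CPM to 328 and 307 CPM (1.16 ± 0.14, adjusted p = 0.000114), and the protease inhibitor PBI2 rose 1.36-fold. The 5 rises became 9 with no composition normalization and 2 without nHP mutation replicate 2 or HP mutation replicate 1. The rise of PRB1, proteinase B (0.39 ± 0.14, adjusted p = 0.038), and the fall of VMA1, a subunit of the vacuolar proton pump (-0.34 ± 0.10, adjusted p = 0.0169), were lost under 6 and 5 of 19 settings, both of them without nHP mutation replicate 2, either HP mutation library (adjusted p = 0.0638 to 0.214).

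The general stress response, genes shared by many stresses and largely read by Msn2 and Msn4, rose in 23 of 42, fell in 2 and did not pass in 17 (median 0.41). Of the 42, 14 were higher and 3 lower by the strain test. GRE1, a hydrophilin of desiccation, went from 138 and 48.7 CPM to 621 and 474 CPM (2.55 ± 0.45, adjusted p = 0.000851). SIP18, a related hydrophilin, went from 59.2 and 21.5 CPM to 243 and 212 CPM (2.49 ± 0.34, adjusted p = 0.000191). PAI3, the proteinase A inhibitor, went from 80.0 and 55.0 CPM to 247 and 213 CPM (1.77 ± 0.19, adjusted p = 5.47e-05). The nHP replicates of GRE1 and SIP18 differed from each other by more than 2-fold, and both stayed below the HP libraries. HSP104, the protein disaggregase, was in the other direction, from 3417 and 3743 CPM to 2483 and 2322 CPM (-0.58 ± 0.14, adjusted p = 0.00478), and this call was lost without HP mutation replicate 2 (adjusted p = 0.0741), as was that of the other member that fell. The stress response element AGGGG was present in 61.9% of this list's promoters, against 21.6% of all promoters. RGI2, a gene of respiratory growth, went from 37.2 and 11.6 CPM to 403 and 330 CPM (3.91 ± 0.49, adjusted p = 0.000121), the largest rise among called genes averaging at least 10 CPM. SPG1, needed for survival in stationary phase, went from 53.4 and 19.5 CPM to 242 and 210 CPM (2.63 ± 0.37, adjusted p = 0.00022).

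Trehalose and glycogen genes rose in 6 of 16 and 10 did not pass (median 0.17). The trehalases rose, with ATH1 from 132 and 101 CPM to 303 and 272 CPM (1.31 ± 0.17, adjusted p = 0.000147) and NTH2 by 1.77-fold. GLG2, a primer of glycogen synthesis, rose 2.23-fold. Among 21 stress transcription factors 7 rose, 1 fell and 13 did not pass (median 0.09). The rises were 33.3% of the list, against 25.2% of all genes, and the fall 4.76%, against 24.1%. YAP5, an iron-responsive factor, rose 2.02-fold, CAD1, the close relative of Yap1, rose 1.66-fold, and HOT1, an osmotic stress factor, rose 1.63-fold. YAP7 fell 1.22-fold, and its call was lost under 9 of 19 alternative settings, among them no composition normalization (adjusted p = 0.222). YAP1 itself, the main peroxide-responsive factor, stood at 379 and 366 CPM in nHP and 333 and 366 CPM in HP (-0.09 ± 0.09, adjusted p = 0.402). SKN7 stood at 122 and 126 CPM in nHP and 110 and 123 CPM in HP (-0.09 ± 0.09, adjusted p = 0.421). MSN2 stood at 117 and 112 CPM in nHP and 123 and 121 CPM in HP (adjusted p = 0.416), and MSN4 at 153 and 150 CPM in nHP and 148 and 158 CPM in HP (adjusted p = 0.909). Groups overlapped for YAP1, SKN7 and MSN4.

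Enzymes that act on peroxide, thioredoxin and glutathione rose in 16 of 38, fell in 6 and did not pass in 16 (median 0.09). The 6 falls became 3 without HP mutation replicate 2 and 3 on RPKM values. In the control strain 9 of the 38 rose, and the median there was 0.17. By the strain test 7 were higher and 9 lower in the mutation strain. The members that rose included catalases and methionine repair, and the members that fell included peroxiredoxins and thioredoxin reductase. Beside CTA1, the cytosolic catalase CTT1 stood at 1048 and 804 CPM in nHP and 1590 and 1504 CPM in HP (0.74 ± 0.19, adjusted p = 0.00697), a call lost without nHP mutation replicate 2 (adjusted p = 0.0839). GTO1, an omega-class glutathione transferase, rose 2.11-fold (1.08 ± 0.13, adjusted p = 9.7e-05).

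GPX2, a glutathione peroxidase that Yap1 and Skn7 regulate, stood at 202 and 205 CPM in nHP and 87.2 and 80.0 CPM in HP (-1.28 ± 0.22, adjusted p = 0.000636). In the control strain it was higher in HP, by a log2 fold change of 1.56, and the strain test gave -2.84 (adjusted p = 0.000472). The peroxiredoxin AHP1 stood at 3765 and 4554 CPM in nHP and 2317 and 1994 CPM in HP (-0.95 ± 0.14, adjusted p = 0.000331). TRR1, thioredoxin reductase, stood at 1106 and 1322 CPM in nHP and 732 and 649 CPM in HP (-0.81 ± 0.13, adjusted p = 0.000527). For AHP1 and TRR1 the control strain's log2 fold changes were 0.57 and 0.52, neither past the threshold there, and the strain test gave -1.52 and -1.33 (adjusted p = 0.00111 and 0.0013). TSA1, the major cytosolic peroxiredoxin, stood at 1665 and 2047 CPM in nHP and 1400 and 1227 CPM in HP (-0.50 ± 0.16, adjusted p = 0.0205). SRX1, the sulfiredoxin that repairs overoxidised peroxiredoxins, stood at 70.4 and 60.6 CPM in nHP and 48.6 and 33.2 CPM in HP (-0.67 ± 0.19, adjusted p = 0.0137). SOD1, the copper-zinc superoxide dismutase, stood at 2082 and 2327 CPM in nHP and 1725 and 1459 CPM in HP (-0.47 ± 0.13, adjusted p = 0.0134). The HP libraries of these 3 genes were below the nHP libraries, but each call was lost without HP mutation replicate 2 (adjusted p = 0.175, 0.139 and 0.171) and on RPKM values. The TSA1 and SOD1 calls were also lost without nHP mutation replicate 2, that of TSA1 without HP mutation replicate 1, and that of SRX1 without nHP mutation replicate 1. In the control strain TSA1 and SRX1 rose, by log2 fold changes of 0.82 and 1.33.

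TRX2, a cytosolic thioredoxin, stood at 622 and 675 CPM in nHP and 597 and 521 CPM in HP (-0.21 ± 0.12, adjusted p = 0.155), against a rise of 0.59 on the log2 scale in the control strain. GSH1, which starts glutathione synthesis, stood at 309 and 285 CPM in nHP and 267 and 233 CPM in HP (-0.25 ± 0.10, adjusted p = 0.0649), against a rise of 0.62 in the control strain. The strain test passed for both (-0.80 and -0.87, adjusted p = 0.00588 and 0.00238). With 4 of the 19 alternative settings, one of them the fit of the 4 mutation strain libraries alone, the GSH1 difference was called (adjusted p = 0.036 to 0.0455). SOD2, the mitochondrial dismutase, and GLR1, glutathione reductase, did not pass (adjusted p = 0.23 and 0.848). Of 25 Yap1 targets 9 rose, 7 fell and 9 did not pass (median 0.04), against 7 that rose in the control strain, where the median was 0.46. By the strain test 4 were higher and 9 lower. HBN1, a nitroreductase-like protein, went from 28.2 and 21.8 CPM to 79.7 and 65.6 CPM (1.54 ± 0.15, adjusted p = 2.82e-05). YML131W, a putative oxidoreductase, went from 240 and 199 CPM to 631 and 591 CPM (1.48 ± 0.13, adjusted p = 2.14e-05). ECM4, another omega-class glutathione transferase, rose 1.92-fold. The 9 rises became 5 without HP mutation replicate 1 and the 7 falls became 4 without HP mutation replicate 2.

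**Figure D3:**
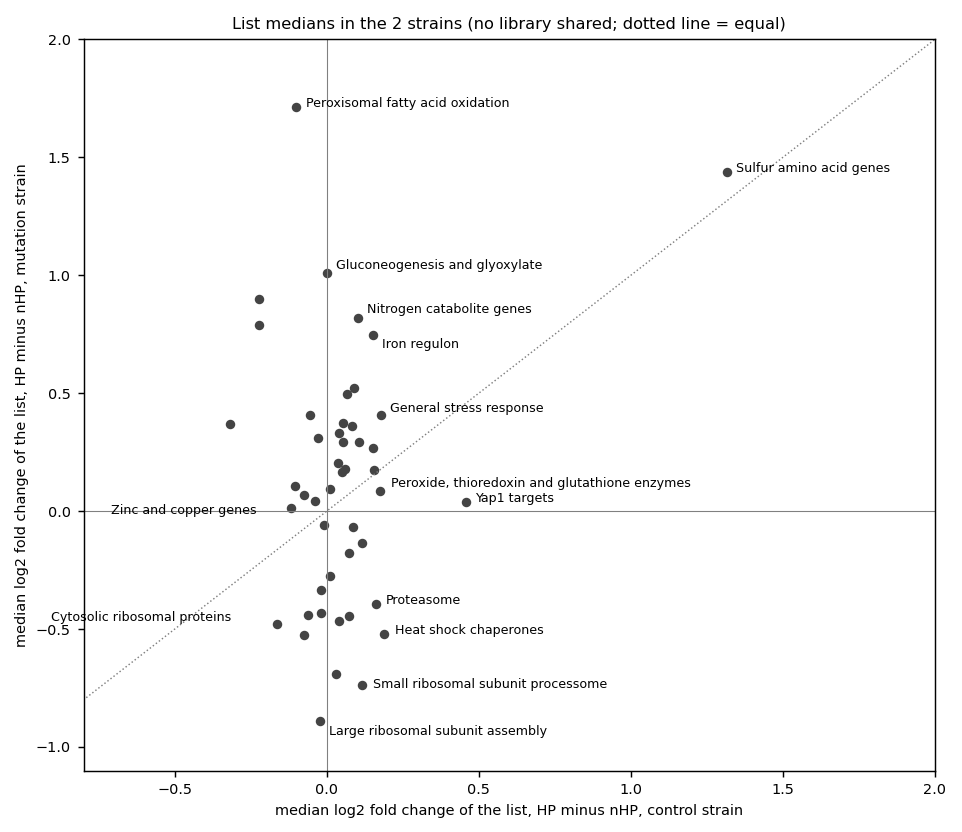
Median log2 fold change, HP minus nHP, of each of the 47 lists in the mutation strain against the control strain, with no library shared between the axes and a dotted line where both are equal. Sulfur amino acid genes lie near the line at 1.32 and 1.44, Yap1 targets at 0.46 and 0.04, peroxisomal fatty acid oxidation at -0.10 and 1.71, and heat shock chaperones at 0.19 and -0.52, the control strain first in each case.

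Genes of the iron regulon, which cells use to take up and spare iron, rose in 23 of 31, fell in 1 and did not pass in 7 (median 0.75). Of these, 18 were higher by the strain test. TIS11, which marks messages of iron-using proteins for decay, went from 23.0 and 18.4 CPM to 87.8 and 67.7 CPM (1.91 ± 0.23, adjusted p = 9.44e-05). FIT3, a cell wall protein that holds siderophores, went from 48.0 and 50.8 CPM to 134 and 115 CPM (1.34 ± 0.15, adjusted p = 6.41e-05). LSO1 rested on 5 and 4 counts in nHP and 24 and 22 counts in HP (adjusted p = 0.00216). FRE1, a reductase for iron and copper, moved the other way, from 68.3 and 54.7 CPM to 25.4 and 25.2 CPM (-1.28 ± 0.21, adjusted p = 0.000541), and by -1.29 in the control strain. The core of the Aft1 site, GCACCC on either strand, was present in 17 of the 31 promoters (54.8%), against 4.25% of all promoters. The promoters of TIS11, at chrXII:416819-416908 on the minus strand, and FIT3, at chrXV:1061211-1061260 on the minus strand, are shown with the core in capitals, on both strands in TIS11.
TIS11: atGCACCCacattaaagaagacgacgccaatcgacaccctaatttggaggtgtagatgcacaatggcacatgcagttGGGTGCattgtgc
FIT3: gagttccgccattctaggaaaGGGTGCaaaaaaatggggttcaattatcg

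The zinc and copper list held the 2 largest falls among called genes averaging at least 10 CPM. Of its 16 tested genes 6 rose, 6 fell and 4 did not pass (median 0.01). ZRT1, the high-affinity zinc importer, stood at 419 and 448 CPM in nHP and 146 and 119 CPM in HP (-1.71 ± 0.14, adjusted p = 1.13e-05). CTR1, the high-affinity copper importer, stood at 129 and 117 CPM in nHP and 41.1 and 39.2 CPM in HP (-1.62 ± 0.17, adjusted p = 4.08e-05). Both fell further in the control strain, by -3.19 and -2.43, and the strain test gave 1.48 and 0.81 (adjusted p = 0.00103 and 0.0246). ZPS1, a cell wall protein of zinc shortage, stood at 18.8 and 19.2 CPM in nHP and 27.4 and 27.5 CPM in HP. Its difference of 0.53 ± 0.21 had an adjusted p of 0.056 and passed under 13 of 19 alternative settings, and in the control strain ZPS1 fell by 2.89 on the log2 scale. CRS5, a copper-binding metallothionein, went from 41.4 and 27.5 CPM to 94.1 and 92.0 CPM (1.44 ± 0.16, adjusted p = 6.7e-05), IZH4, a membrane protein linked to zinc, rose 2.05-fold, and CUP2, the copper-sensing activator, rose 1.78-fold. The 6 falls became 3 without nHP mutation replicate 2, either HP mutation library, and on RPKM values. A form of the element read by the zinc sensor Zap1, searched on both strands, was found in 0.0833% of all promoters. The ZRT1 promoter holds it, in capitals, at chrVII:20753-20802 on the plus strand.
ZRT1: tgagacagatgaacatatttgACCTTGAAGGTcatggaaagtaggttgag

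Of 19 phosphate genes 8 rose, 1 fell and 10 did not pass (median 0.29), and 5 rose without nHP mutation replicate 2 or HP mutation replicate 1. PHO89, the sodium-phosphate cotransporter, went from 25.8 and 14.5 CPM to 133 and 123 CPM (2.67 ± 0.21, adjusted p = 1.13e-05), with a strain test of 2.86 (adjusted p = 0.000472). SPL2, a small regulator of phosphate uptake, rose 2.13-fold. PHO84, the high-affinity phosphate transporter, rose 1.85-fold, but it overlaps an antisense RNA over 1764 bases and strand use in the counting is not given. VTC4, the polyphosphate polymerase, fell 1.36-fold. Thiamine and pyridoxine genes rose in 6 of 19, fell in 2 and did not pass in 11 (median 0.36). THI4, which makes the thiazole ring of thiamine, went from 8.35 and 8.16 CPM to 27.8 and 29.1 CPM (1.78 ± 0.15, adjusted p = 1.56e-05). SNZ1, for pyridoxine, went from 97.7 and 90.7 CPM to 334 and 282 CPM (1.71 ± 0.14, adjusted p = 1.42e-05). SNZ2, 99.3% identical to SNZ3, had 4 and 5 counts in nHP and 24 and 15 counts in HP, a call lost without nHP mutation replicate 1 or HP mutation replicate 1 (adjusted p = 0.0556 and 0.0645). PHO3, an acid phosphatase of thiamine uptake, fell from 151 and 186 CPM to 78.4 and 88.7 CPM (-1.01 ± 0.14, adjusted p = 0.000187).

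The lowest medians belonged to ribosome assembly. Of 46 genes for assembly of the large ribosomal subunit, 45 fell and 1 did not pass (median -0.89). Of 43 genes of the small subunit processome, 41 fell and 2 did not pass (median -0.74). By the strain test 44 of the 46 and 40 of the 43 were lower in the mutation strain. NOP7, needed to process the large subunit's RNA, stood at 1023 and 1258 CPM in nHP and 426 and 475 CPM in HP (-1.34 ± 0.13, adjusted p = 2.82e-05). REA1, the giant ATPase that pulls assembly factors off the large subunit, stood at 965 and 1076 CPM in nHP and 382 and 410 CPM in HP (-1.36 ± 0.11, adjusted p = 1.13e-05). KRR1, of the small subunit, stood at 356 and 424 CPM in nHP and 152 and 163 CPM in HP (-1.31 ± 0.11, adjusted p = 1.66e-05). In each gene both HP libraries were far below both nHP libraries. SDA1, for large subunit export, fell 2.56-fold, DBP2, an RNA helicase, fell 2.43-fold, and UTP20 and BMS1 of the processome fell 2.29-fold and 2.23-fold. Of 13 RNA polymerase I genes, which make ribosomal RNA, 8 fell and 5 did not pass (median -0.69). The largest subunit, RPA190, stood at 606 and 688 CPM in nHP and 267 and 303 CPM in HP (-1.18 ± 0.12, adjusted p = 3.49e-05). RPA43 and RPA135, both also subunits of the enzyme, fell 2.20-fold and 2.11-fold.

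Letters known as the PAC and RRPE elements, GATGAG and AAAATTTT on either strand, were searched in the same promoter windows. GATGAG was present in 42 of 46 large subunit assembly promoters (91.3%), 39 of 43 processome promoters (90.7%) and 11 of 13 RNA polymerase I promoters (84.6%), against 20.4% of all promoters. AAAATTTT was present in 82.6%, 74.4% and 61.5% of them, against 9.03% of all promoters. NOP7 at chrVII:695267-695326 on the plus strand, KRR1 at chrIII:23440-23524 on the minus strand and RPA190 at chrXV:960757-960826 on the plus strand are shown because both elements, in capitals, stand close together in each. Overlapping copies of GATGAG run into each other in NOP7, and its reverse complement does so in RPA190.
NOP7: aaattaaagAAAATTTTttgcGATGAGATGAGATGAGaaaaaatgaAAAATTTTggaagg
KRR1: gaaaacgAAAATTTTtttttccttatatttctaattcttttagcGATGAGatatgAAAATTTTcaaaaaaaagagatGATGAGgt
RPA190: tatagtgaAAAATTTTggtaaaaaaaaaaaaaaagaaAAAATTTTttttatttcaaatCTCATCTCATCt

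Cytosolic ribosomal protein genes fell in 118 of 136 and 18 did not pass (median -0.48). This count depended on single libraries, being 22 without nHP mutation replicate 2, 14 without HP mutation replicate 1 and 60 on RPKM values. With no composition normalization 2 members rose. The list's median was -0.16 in the control strain. By the strain test, with edgeR's quasi-likelihood fit, 0 of the 136 passed at the adjusted threshold and 18 were lower at an unadjusted p below 0.05. DESeq2 called 6 lower and limma-voom 0, and 79 were lower without HP control replicate 1 and 10 without nHP mutation replicate 1. RPL13A stood at 544 and 650 CPM in nHP and 343 and 382 CPM in HP (-0.72 ± 0.12, adjusted p = 0.000648; strain test -0.49, adjusted p = 0.0512), although it shares 92.8% identity with RPL13B over 62.3% of its length. RPL12A, 91.9% identical to RPL12B, fell 1.61-fold. RPS21A fell 1.56-fold, a call lost without nHP mutation replicate 2 or HP mutation replicate 1 (adjusted p = 0.0742 and 0.0634). Mitochondrial ribosomal protein genes differed from these, with 4 of 65 higher, 6 lower and 55 not past the threshold (median -0.06). That median was 0.06 with no composition normalization, where 12 genes rose and the falls were lost. RSM10 rose from 109 and 97.2 CPM to 161 and 142 CPM (0.56 ± 0.09, adjusted p = 0.000684). The falls of MRPL33, MRPS16 and MRP10 were 1.31-fold or smaller and were lost with no composition normalization (adjusted p = 0.128, 0.138 and 0.179). Rises numbered 2 without nHP mutation replicate 2 or HP mutation replicate 1, and falls numbered 1 without nHP mutation replicate 1, nHP mutation replicate 2 or HP mutation replicate 2. All 6 falls were lost without HP mutation replicate 1.

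**Figure D4:**
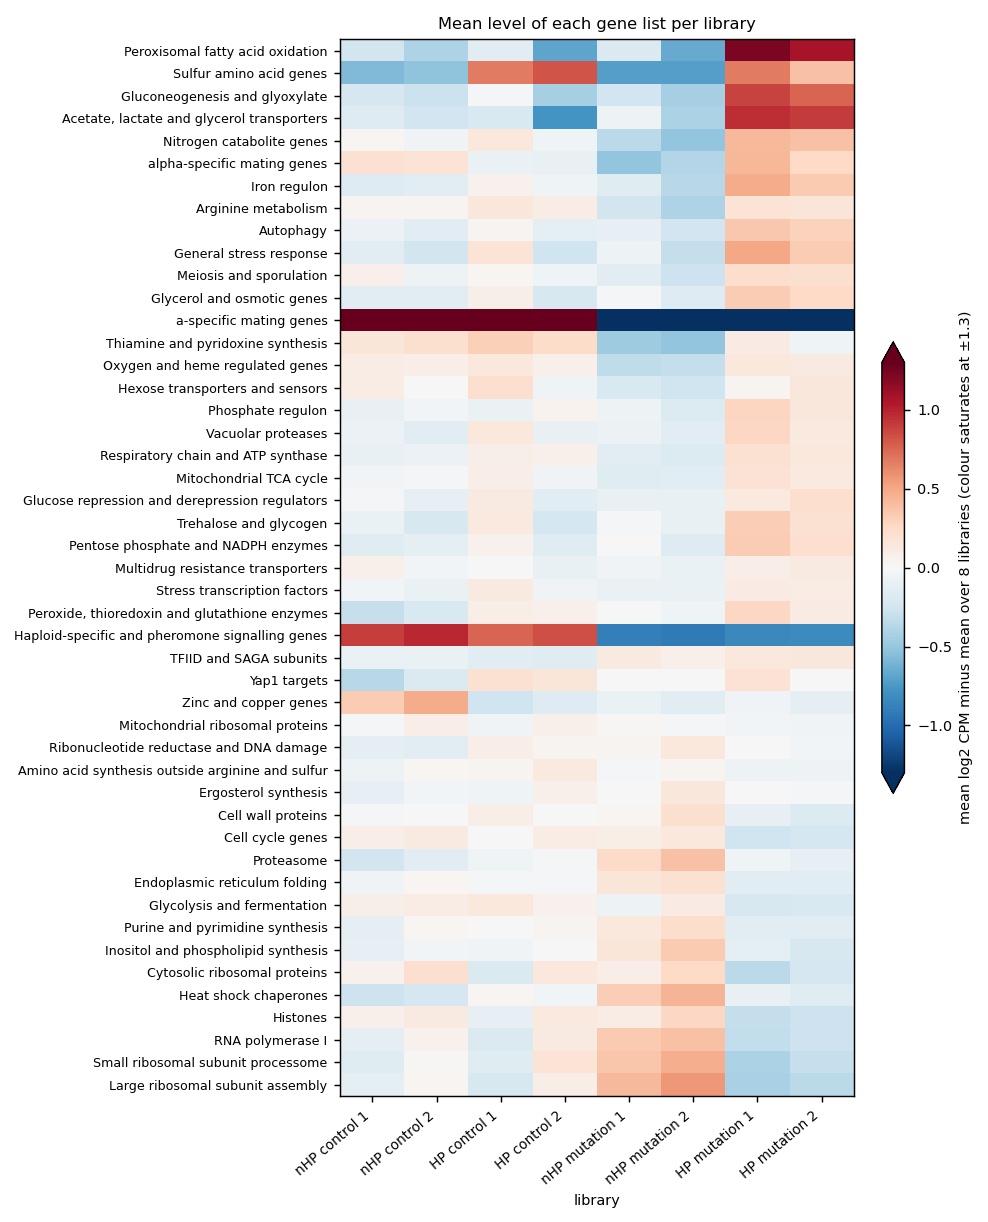
Mean log2 CPM of each gene list in each library, minus the list's mean over all 8 libraries, with red for higher and blue for lower and the colour saturating at 1.3 in either direction. The ribosome assembly lists are highest in the nHP mutation libraries and lowest in the HP mutation libraries, while the a-specific list lies at -2.76 to -2.31 in the mutation strain libraries and at 2.28 to 2.80 in those of the control strain.

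Proteasome subunit genes fell in 28 of 33 and 5 did not pass (median -0.40), and 29 were lower by the strain test. RPN1, a large subunit of the regulatory cap, stood at 1269 and 1492 CPM in nHP and 846 and 805 CPM in HP (-0.74 ± 0.11, adjusted p = 0.000293). PRE1, of the catalytic core, stood at 339 and 371 CPM in nHP and 235 and 237 CPM in HP (-0.59 ± 0.09, adjusted p = 0.000327). PRE6, also of the core, stood at 426 and 461 CPM in nHP and 317 and 289 CPM in HP (-0.55 ± 0.10, adjusted p = 0.000777). The changes were small. In all 33 genes both HP libraries were below both nHP libraries, against 38.7% of all tested genes. ECM29, which tethers core and cap, fell 1.92-fold, with a strain test of -1.27. The count of falls was 13 without nHP mutation replicate 2 and 14 without HP mutation replicate 2. GGTGGCAAA, the site read by the proteasome regulator Rpn4, was present on either strand in 27 of the 33 promoters (81.8%) against 1.20% of all promoters. RPN1 at chrVIII:164827-164876 on the minus strand, PRE1 at chrV:177670-177719 on the plus strand and PRE6 at chrXV:255207-255256 on the plus strand show it in capitals, reversed in PRE6.
RPN1: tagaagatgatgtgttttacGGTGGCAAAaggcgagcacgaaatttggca
PRE1: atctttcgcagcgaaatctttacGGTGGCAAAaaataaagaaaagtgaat
PRE6: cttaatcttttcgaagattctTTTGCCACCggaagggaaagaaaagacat

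Heat shock chaperone genes fell in 26 of 33, rose in 2 and did not pass in 5 (median -0.52). In the control strain 5 of the 33 rose, with a median of 0.19. By the strain test 26 were lower and 2 higher. YDJ1, the main cytosolic Hsp40, stood at 1403 and 1799 CPM in nHP and 686 and 676 CPM in HP (-1.23 ± 0.13, adjusted p = 3.86e-05). CUR1, a sorting factor for misfolded proteins, stood at 152 and 156 CPM in nHP and 74.2 and 68.8 CPM in HP (-1.11 ± 0.09, adjusted p = 1.47e-05). BTN2, its partner in that sorting, stood at 1137 and 1306 CPM in nHP and 651 and 566 CPM in HP (-1.005 ± 0.11, adjusted p = 5.61e-05). BTN2 rose in the control strain by 1.35, and its strain test of -2.36 had an adjusted p of 4.25e-05. ZPR1, a chaperone of translation factor eEF1A, and FES1, a nucleotide exchange factor of Hsp70, fell with log2 fold changes of -1.02 and -0.78 and rose in the control strain with 0.61 and 0.53. HSP82, an Hsp90, fell 2.12-fold, though it is 91.8% identical to HSC82. HSP26, a small heat shock protein, went the other way, from 341 and 263 CPM to 669 and 651 CPM (1.13 ± 0.13, adjusted p = 8.77e-05). In the endoplasmic reticulum 9 of 16 folding genes fell, 1 rose and 6 did not pass (median -0.43). ERO1, the oxidase that makes disulfide bonds, stood at 351 and 376 CPM in nHP and 170 and 175 CPM in HP (-1.07 ± 0.09, adjusted p = 1.13e-05). KAR2, the Hsp70 of that compartment, fell 2.06-fold and its exchange factor SIL1 fell 1.57-fold, whereas HRD1, a ubiquitin ligase for misfolded proteins, rose 1.53-fold.

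Purine and pyrimidine synthesis fell in 17 of 25 genes, rose in 3 and did not pass in 5 (median -0.44), with 1 rise without nHP mutation replicate 2. URA7, CTP synthase, went from 405 and 504 CPM to 210 and 228 CPM (-1.05 ± 0.16, adjusted p = 0.000362). GUA1, GMP synthase, went from 884 and 1104 CPM to 480 and 481 CPM (-1.05 ± 0.13, adjusted p = 0.000122), and ADE6, of the purine path, fell 1.71-fold. FCY2, the purine and cytosine permease, rose from 211 and 192 CPM to 382 and 471 CPM (1.08 ± 0.11, adjusted p = 3.49e-05). Amino acid synthesis outside arginine and sulfur fell in 23 of 57 genes, rose in 11 and did not pass in 23 (median -0.13). LEU9, of leucine synthesis, fell 1.70-fold, BAT1, the mitochondrial branched-chain aminotransferase, fell 1.56-fold, and ASN2, an asparagine synthetase, fell 1.48-fold. GDH3, the minor NADP-linked glutamate dehydrogenase, rose from 154 and 121 CPM to 415 and 392.3 CPM (1.56 ± 0.16, adjusted p = 3.49e-05). The 23 falls became 11 without nHP mutation replicate 2, 13 without either HP mutation library and 15 on RPKM values. The 11 rises became 6 without nHP mutation replicate 2 and 7 without HP mutation replicate 2.

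Inositol and phospholipid synthesis fell in 12 of 17 genes, rose in 1 and did not pass in 4 (median -0.47), and 12 were lower by the strain test. PSD1, which makes phosphatidylethanolamine in mitochondria, went from 226 and 271 CPM to 138 and 126 CPM (-0.91 ± 0.10, adjusted p = 6.07e-05). OPI3, which methylates it to phosphatidylcholine, fell 1.83-fold, ITR1, the inositol transporter, fell 1.79-fold, and INO2, an activator of these genes, rose 1.52-fold. Ergosterol synthesis fell in 8 of 24, rose in 3 and did not pass in 13 (median -0.18). UPC2, the sterol-sensing activator, rose from 75.7 and 76.1 CPM to 156 and 180 CPM (1.15 ± 0.11, adjusted p = 3.18e-05). ERG6, sterol methyltransferase, fell 1.39-fold, and ERG2 and ERG13, enzymes of the same path, fell 1.46-fold and 1.37-fold, both lost without nHP mutation replicate 2 (adjusted p = 0.0982 and 0.0718). The 8 falls became 4 with no composition normalization, 1 without nHP mutation replicate 2, 3 and 2 without HP mutation replicates 1 and 2 in turn, and the 3 rises became 6 with no composition normalization. Of 22 genes regulated by oxygen and heme, 12 rose, 3 fell and 7 did not pass (median 0.33). DAN1, a cell wall mannoprotein of anaerobic cells, had 5 and 7 counts in nHP and 127 and 123 counts in HP (adjusted p = 6.49e-06). TIR1, another such mannoprotein, went from 34.3 and 37.2 CPM to 132 CPM in both HP libraries (1.89 ± 0.12, adjusted p = 2e-06). MGA2, a membrane-held activator of the fatty acid desaturase gene, rose 1.80-fold, and AAC3, the ADP/ATP carrier of anaerobic cells, fell 1.61-fold.

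Histone genes fell in 9 of 11 and 2 did not pass (median -0.52). HTB2, a histone H2B gene, went from 390 and 470 CPM to 249 and 273 CPM (-0.72 ± 0.13, adjusted p = 0.000829). HHF1 and HTA2 fell 1.65-fold and 1.64-fold, but are 97.4% and 94.1% identical to HHF2 and HTA1. Among cell cycle genes 19 of 33 fell, 4 rose and 10 did not pass (median -0.34). POL30, the replication clamp, went from 16.8 and 21.8 CPM to 6.71 and 9.53 CPM (-1.26 ± 0.23, adjusted p = 0.000989). CLN2, a G1 cyclin, went from 52.1 and 70.6 CPM to 30.3 and 30.5 CPM (-1.01 ± 0.13, adjusted p = 0.000153), and DSE3, a daughter-cell gene, rose 1.35-fold. CLB6, an S phase cyclin, had 31 and 39 counts in nHP and 19 and 24 counts in HP, a call lost without nHP mutation replicate 2 or HP mutation replicate 1 (adjusted p = 0.129 and 0.134). The 19 falls became 11 without nHP mutation replicate 2, 12 without HP mutation replicate 1 and 12 on RPKM values, and the 4 rises became 2 without nHP mutation replicate 2 and 1 without HP mutation replicate 2. RNR1, the large subunit of ribonucleotide reductase, went from 210 and 292 CPM to 100 and 95.2 CPM (-1.36 ± 0.15, adjusted p = 6.19e-05). The 16 genes of its list, with the DNA damage response, held 5 falls, 2 rises and 9 not past the threshold (median -0.07, and 0.06 with no composition normalization). Both rises were lost without any one of the mutation strain libraries, and rises numbered 5 with no composition normalization. Falls numbered 1 without nHP mutation replicate 2, 2 without either HP mutation library, and 3 with no composition normalization. The checkpoint kinase DUN1 fell 1.47-fold and DIF1, which moves the enzyme's small subunits, fell 1.28-fold, both lost without nHP mutation replicate 2 (adjusted p = 0.107 and 0.144). The repressor RFX1 rose 1.31-fold, lost without any one of the 4 mutation strain libraries (adjusted p = 0.0522 to 0.271). HRP1, a subunit of the messenger RNA cleavage factor, fell from 773 and 946 CPM to 364 and 312 CPM (-1.35 ± 0.13, adjusted p = 2.71e-05). YLR342W-A, an uncharacterised reading frame, fell from 20.4 and 22.1 CPM to 8.21 and 8.68 CPM (-1.33 ± 0.22, adjusted p = 0.000619).

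Cell wall protein genes fell in 12 of 31, rose in 5 and did not pass in 14 (median -0.27), and 12 were lower by the strain test. CIS3, a structural mannoprotein, went from 730 and 896 CPM to 431 and 391.7 CPM (-0.98 ± 0.12, adjusted p = 9.51e-05), and SCW10, a glucanase, fell 1.92-fold. UTR2, a chitin transglycosylase, went from 301 and 342 CPM to 142 and 133 CPM (-1.23 ± 0.18, adjusted p = 0.000296). SPI1, a wall protein of weak acid stress, rose 1.74-fold. The 5 rises became 2 without nHP mutation replicate 1 or HP mutation replicate 1 and 3 without either of the other mutation strain libraries. Of 14 glycerol and osmotic genes 7 rose, 3 fell and 4 did not pass (median 0.37). GUT1, glycerol kinase, went from 171 and 141 CPM to 373 and 333 CPM (1.18 ± 0.12, adjusted p = 3.7e-05), and GUT2, the next enzyme, rose 1.93-fold. SHO1, an osmosensor, fell 1.47-fold, and the list's falls became 1 without nHP mutation replicate 2 or HP mutation replicate 2. Of 18 multidrug resistance transporters 5 rose, 3 fell and 10 did not pass (median 0.11). Rises and falls made up 27.8% and 16.7% of the list, against 25.2% and 24.1% of all genes. PDR10, an ABC transporter, rose 2.13-fold, AQR1, an exporter of short acids and amino acids, rose 2.04-fold, RSB1, a sphingoid base transporter, rose 1.94-fold, and TPO1, a polyamine exporter, fell 1.52-fold. Rises numbered 8 with no composition normalization and 3 without nHP mutation replicate 2, and falls numbered 1 without HP mutation replicate 1.

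Some mating genes were called, in shares set here beside those over all genes. Of 7 a-specific genes 2 rose (28.6%, against 25.2% of all genes) and 5 did not pass (median 0.37). STE6, the a-factor exporter, went from 21.4 and 22.02 CPM to 37.9 and 38.9 CPM (0.82 ± 0.10, adjusted p = 0.000102). MFA2, a second a-factor gene, went from 2.87 and 2.97 CPM to 6.06 and 4.87 CPM (0.91 ± 0.27, adjusted p = 0.0148), a call lost without nHP mutation replicate 1, nHP mutation replicate 2 or HP mutation replicate 1 (adjusted p = 0.0701 to 0.0944). The a-specific rises numbered 4 with no composition normalization. STE2 had a difference of 0.45 ± 0.18 (adjusted p = 0.0559), past the threshold under 13 of 19 alternative settings, and MFA1 one of 0.37 ± 0.22 (adjusted p = 0.193). The alpha-specific list, of 4 genes, had 2 rises, among them MF(ALPHA)1 (1.28 ± 0.26, adjusted p = 0.00181). Its rises numbered 1 when genes needed 10 CPM in 2 libraries and 3 with no composition normalization. By the strain test all 4 were higher, as were 4 of the 7 a-specific genes. In the control strain 3 of the 7 a-specific genes fell. Of 24 haploid-specific and pheromone genes 7 rose (29.2%), 4 fell (16.7%, against 24.1% of all genes) and 13 did not pass (median 0.07). FUS1, a cell fusion protein, went from 8.10 and 7.67 CPM to 24.2 and 20.1 CPM (1.49 ± 0.16, adjusted p = 5.47e-05). The mating gene FIG1 had 5 and 9 counts in nHP and 20 and 19 counts in HP (adjusted p = 0.027), a call lost under 4 of 18 alternative settings: with DESeq2 and without nHP mutation replicate 1, HP mutation replicate 1 or the other HP mutation library (adjusted p = 0.0687 to 0.196). RME1, the repressor of meiosis in haploids, rose 1.71-fold, and PRM3, of nuclear fusion, fell 1.75-fold, a call lost without HP mutation replicate 1 (adjusted p = 0.0581). Rises in this list became 4 without nHP mutation replicate 1, either HP mutation library, and with DESeq2.

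Meiosis and sporulation genes rose in 16 of 34, fell in 2 and did not pass in 16 (median 0.41), with 8 rises without nHP mutation replicate 2 and 10 when genes needed 10 CPM in 2 libraries. REC8, the meiotic cohesin, went from 3.36 and 2.47 CPM to 9.61 and 10.2 CPM (1.75 ± 0.23, adjusted p = 0.000165). MND1, of meiotic recombination, rose 3.39-fold from 4.24 and 3.09 CPM, and rose in the control strain too. SPS100, a spore wall gene, rose 3.89-fold, although it overlaps an antisense RNA over 946 bases and strand use in the counting is not given. SPO74, of the meiotic spindle pole, fell 2.23-fold from 14.6 CPM in both nHP libraries. GGCGGC, the letters of the meiotic repressor Ume6, was present in 32.4% of these promoters, against 5.13% of all promoters.

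TFIID and SAGA subunit genes rose in 6 of 29, fell in 2 and did not pass in 21 (median 0.04). These shares, 20.7% and 6.9%, were below the 25.2% and 24.1% of all genes. The rises became 2 without nHP mutation replicate 2 or HP mutation replicate 1, or 3 with HP mutation replicate 2 left out, and the falls became 4 without either HP control library and were lost with no composition normalization or without nHP mutation replicate 2. SGF29 rose from 73.5 and 74.1 CPM to 99.6 and 108 CPM (0.49 ± 0.09, adjusted p = 0.00131), and SGF73, also of SAGA, rose 1.38-fold, a call lost without nHP mutation replicate 2 (adjusted p = 0.0619). TAF10, at the levels given above, differed by 0.42 ± 0.16 (adjusted p = 0.0431), and its call was lost under 9 of 19 alternative settings, among them the fit of the 4 mutation strain libraries alone (adjusted p = 0.167). TRA1, the large activator-binding subunit, fell 1.32-fold, lost under 5 of 19 settings, among them no composition normalization (adjusted p = 0.0543). URA3, the marker that the medium selects for, stood at 1842 and 1801 CPM in nHP and 3456 and 3118 CPM in HP (0.85 ± 0.13, adjusted p = 0.000378), against 3172 to 4205 CPM over the control strain's libraries. HIS3, another marker locus, stood at 60.3 and 49.97 CPM in nHP and 71.6 and 73.7 CPM in HP (0.40 ± 0.13, adjusted p = 0.0235), a call lost without nHP mutation replicate 2, either HP mutation library (adjusted p = 0.0665 to 0.18). The part of the URA3 and TAF10 levels in the other differences was not tested.

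Of the 121 genes called in the control strain, 84 (69.4%) were also called in the mutation strain, where 49.3% of all tested genes were called. They made up 2.76% of the 3043 calls in the mutation strain. In 71 of them the direction was the same in both strains and in 13 it was opposite. The strain test called 1700 of the 3043 genes (55.9%). Genes with a strain test among the 5 smallest p-values in each direction included GPG1, which rose from 42.9 and 38.5 CPM to 107 and 98.6 CPM (1.34 ± 0.10, adjusted p = 1.04e-05) and had -0.17 in the control strain. Replicates in the HP control group differed by more than 1.5-fold in 262 genes, against 177 in nHP mutation and 121 in HP mutation, so the strain test rested in part on the most variable pair of libraries.

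**Figure D5:**
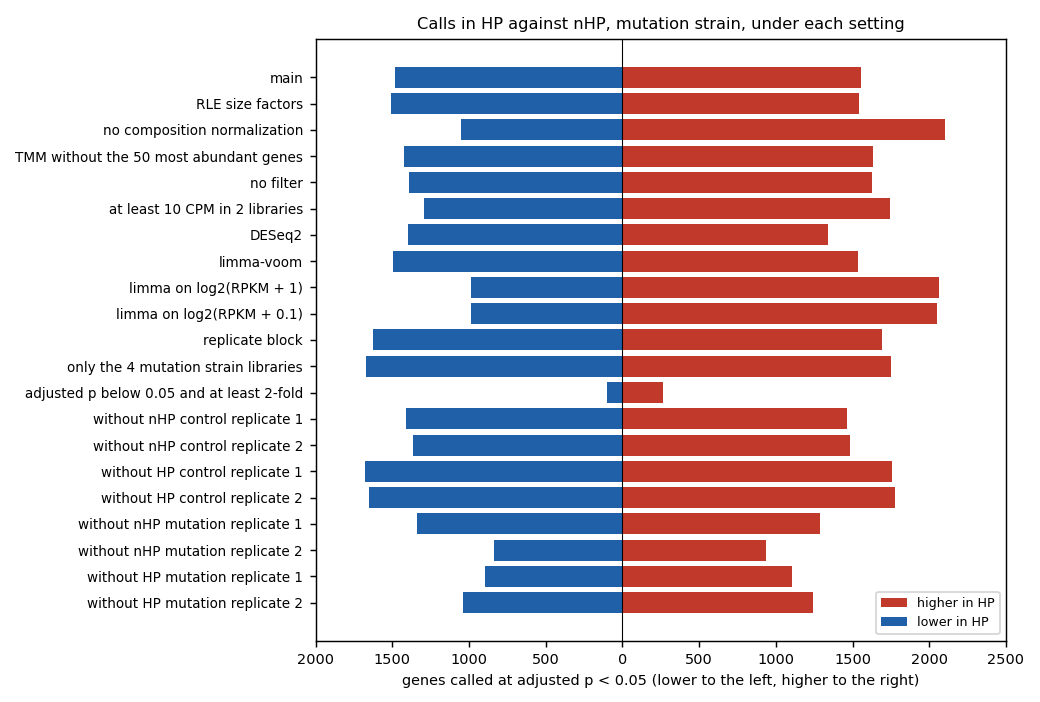
Number of genes called higher (right, red) and lower (left, blue) in HP against nHP of the mutation strain under the reported settings, at the top, and under each alternative. Bars shorten most under a 2-fold minimum, to 266 and 101, and when nHP mutation replicate 2 is left out, to 933 and 840.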

How the data were processed

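Total RNA of 8 libraries was sequenced after preparation with the NEBNext Ultra kit, per the labels' protocols. TopHat2 2.0.9 is named in the submitters' processing notes. For the counting tool, strand setting, genome build and annotation the sources used here give nothing. The authors deposited whole-number read counts per gene, which were used as they stand, and RPKM values of the same genes, which were used only in alternatives. Of 7126 gene IDs, 6079 matched RefSeq's R64 table, and the unmatched held 0.337% to 0.442% of counts per library.

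All 8 libraries, in 4 groups of 2 named by their titles, entered a single edgeR 4.0.16 quasi-likelihood fit in R 4.3.3 with TMM scaling and edgeR's filter on low counts (6174 genes). The HP minus nHP contrast of the mutation strain and its difference from that of the control strain were tested, with Benjamini-Hochberg adjustment over all genes at 0.05. The common dispersion of 0.00651 equals a variation of 8.07% between replicates. Totals were 8296523 to 11202362 counts. The procedure was also run on simulated data. It recovered 77.6% of planted 1.5-fold changes in the mutation strain contrast and 38.8% in the strain test. Of the genes it called, 4.37% and 5.92% in turn had no planted change. Far fewer changes were planted than were called in these data, so scaling under a wide change was not tested.

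Alternatives were other scalings and filters, DESeq2 1.42.0, limma 3.58.1 (voom on counts, or log2 of RPKM plus 1 or 0.1), a replicate block, a 2-fold minimum and each library left out. Genes named are the 10 largest rises and falls averaging at least 10 CPM with no overlap, up to 3 called members of each list in its main direction and 1 in the other, a set of markers and antioxidant genes, and the 5 smallest p-values in each direction of the strain test. 1 gene that this rule also picks is not reported here. The 47 lists and the groups compared were chosen with earlier results of these data known. Promoters run from 250 bases before to 50 after the start codon in R64, and near copies were found with BLAST 2.17.0 (at least 90% identity over 50% of the length).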

Additional observations from a re-analysis of the deposited data

Results flagged for a closer look

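The difference between HP and nHP depended on the strain for 154 of the named genes. The strain test was that of the same edgeR quasi-likelihood fit (Benjamini-Hochberg adjusted p below 0.05), which 29.2% of all genes tested passed. Genes were named in part for large changes in the mutation strain or for small strain test p-values. The count of 154 therefore follows in part from the naming, and is no measure of how common strain dependence was. Each value below is the log2 fold change in the mutation strain minus that in the control strain, so a positive value means that HP was further above nHP, or less far below it, in the mutation strain.

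Values above 0 were as follows. Among carbon use and respiration the difference was 3.40 for ADY2, 2.93 for POX1, 2.69 for JEN1, 2.40 for STL1, 2.39 for FOX2, 2.35 for PCK1, 2.30 for CTA1, 2.24 for NDE2, 2.17 for ACS1, 2.10 for HXT5, 2.02 for ADH2, 2.0 for IDP3, 1.97 for CIT3, 1.71 for GND2, 1.64 for REG2, 1.6 for TKL2, 1.05 for HXT6, 1.02 for PDC6, 0.89 for NQM1, 0.86 for CAT8, 0.59 for LSC2 and 0.59 for MDH1. Among stress, antioxidant and protein folding genes the difference was 2.85 for GRE1, 2.68 for SIP18, 1.69 for PAI3, 1.26 for GLG2, 1.04 for YML131W, 1.001 for ATH1, 0.90 for HSP26, 0.83 for HOT1, 0.81 for HBN1, 0.78 for NTH2, 0.64 for CAD1, 0.62 for YAP5, 0.48 for ECM4 and 0.45 for HRD1. Among nutrient uptake, amino acid, nucleotide and autophagy genes the difference was 3.42 for ZPS1, 2.86 for PHO89, 1.99 for PUT4, 1.79 for DAL80, 1.73 for THI4, 1.69 for GDH3, 1.56 for FIT3, 1.53 for DUR3, 1.48 for ZRT1, 1.42 for TIS11, 1.20 for SPL2, 1.07 for SNZ1, 0.996 for ATG39, 0.97 for FCY2, 0.96 for ATG36, 0.93 for AMS1, 0.88 for CRS5, 0.83 for CUP2, 0.81 for CTR1, 0.78 for ATG15, 0.75 for ARG56, 0.66 for CPA1, 0.63 for IZH4, 0.57 for PHO84 and 0.45 for ARG7. Among mating and meiosis genes the difference was 2.64 for SPS100, 2.06 for REC8, 1.67 for FUS1, 1.47 for MF(ALPHA)1, 1.23 for MFA2, 1.06 for MFA1, 0.89 for STE6, 0.77 for RME1, 0.71 for STE2 and 2.45 for FIG1. Among ribosome genes the difference was 0.52 for RSM10. Among the remaining genes the difference was 3.84 for RGI2, 2.65 for DAN1, 2.44 for SPG1, 1.62 for NRG2, 1.51 for GPG1, 1.21 for GUT1, 1.19 for TIR1, 1.14 for PDR10, 1.10 for URA3, 1.06 for RSB1, 0.92 for AQR1, 0.89 for UPC2, 0.57 for INO2, 0.54 for MGA2, 0.52 for SGF29 and 0.42 for DSE3.

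Values below 0 ran in the other direction. For carbon use and respiration it was -1.16 for PDC1, -1.07 for PDC5, -0.81 for RKI1 and -0.61 for SNF4. For stress, antioxidant and protein folding genes it was -2.84 for GPX2, -2.36 for BTN2, -2.0 for SRX1, -1.64 for HSP82, -1.52 for AHP1, -1.38 for KAR2, -1.33 for TRR1, -1.32 for TSA1, -1.31 for YDJ1, -1.30 for FES1, -1.14 for ERO1, -1.12 for CUR1, -0.98 for HSP104, -0.94 for RPN1, -0.94 for SOD1, -0.87 for GSH1, -0.80 for TRX2, -0.69 for PRE1, -0.61 for PRE6, -0.57 for SIL1 and -0.50 for SOD2. For nutrient uptake, amino acid, nucleotide and autophagy genes it was -1.21 for URA7, -1.13 for GUA1, -0.99 for LEU9, -0.81 for PHO3, -0.80 for ASN2, -0.78 for ADE6, -0.63 for BAT1 and -0.53 for VTC4. For mating and meiosis genes it was -1.32 for SPO74 and -0.92 for PRM3. For ribosome genes it was -1.39 for DBP2, -1.36 for NOP7, -1.17 for RPA135, -1.16 for KRR1, -1.16 for RPA190, -1.1 for RPA43, -1.07 for UTP20, -1.05 for BMS1 and -1.0 for REA1. For the remaining genes it was -1.64 for ZPR1, -1.51 for HRP1, -1.27 for SDA1, -1.27 for ECM29, -1.23 for RNR1, -1.23 for CLB6, -1.12 for UTR2, -1.09 for YLR342W-A, -0.98 for CIS3, -0.89 for PSD1, -0.83 for SCW10, -0.76 for DUN1, -0.74 for ITR1, -0.72 for ERG6, -0.65 for HHF1, -0.64 for HTA2, -0.64 for OPI3, -0.63 for CLN2, -0.62 for HTB2, -0.61 for ERG13, -0.60 for TPO1 and -0.47 for SHO1.

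GPX2, BTN2, SRX1, TSA1, ZPR1 and FES1 were called in both strains with opposite signs, lower in HP in the mutation strain and higher in HP in the control strain.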

How the results depend on the processing

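With a library left out, the mutation strain had 1773 to 3434 calls, 933 to 1780 higher and 840 to 1678 lower. The strain test had 725 to 2598, 348 to 1263 higher and 377 to 1335 lower. With a 2-fold minimum 367 genes were called, 266 higher and 101 lower, and 308, 208 and 100 in the strain test. Genes called lower numbered 988 and 986 on log2 RPKM plus 1 and plus 0.1, and in the strain test 503 on both and 576 with no composition normalization. The cause was not tested.

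Differences that did not pass changed sign. With no composition normalization and on RPKM plus 1 and plus 0.1, GLR1 was 0.101, 0.0998 and 0.1001, YAP1 0.0304, 0.0297 and 0.0299, and SKN7 0.0352, 0.0326 and 0.0331. GLR1 was 0.0303 with a filter of 10 CPM. With a library left out, GLR1 ran from -0.0664 to 0.0549, SKN7 from -0.1523 to 0.0066, MSN4 from -0.0131 to 0.0742 and HAP4 from -0.0585 to 0.2849. The median of the peroxide, thioredoxin and glutathione list was -0.01 without HP mutation replicate 1, and that of zinc and copper -0.06 and -0.05 without nHP mutation replicate 1 and HP mutation replicate 1.

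The sign was the same for 2942 of the 3043 called genes with the filter of 10 CPM, which leaves genes out, and for at least 3042 under each other alternative. Same-numbered nHP and HP mutation libraries deviated with a correlation of 0.0474, and the 6 pairs of groups ran from -0.0332 to 0.204. The labels give the replicate numbers no meaning, so they were not taken as pairing the libraries. These correlations do not settle whether libraries of the same number shared an effect. A replicate block gave 3321 calls and 2298 in the strain test, among them 50 cytosolic ribosomal protein genes. DESeq2 gave 2742 calls and voom 3029. Depth limits genes of few reads such as DAL80, with 3 and 4 counts in nHP.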
